A study of Hordeum vulgare with 21 samples.

Results

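The steady messages of malting barley grain were 662 of the 35826 genes in the tables. They were chosen by TPM, the RNA-seq unit of level per transcript length, which sums to the same total in each library. Each of the 7 stage means, taken over replicates A, B and C, had to be at least 20 TPM, and the highest could be at most 1.5 times the lowest. The minimum alone was met by 4963 genes, of which the 662 made up 13.3%. Steadiness in TPM is therefore what chose these genes and is described here with no test. When the same reads were scaled by the trimmed mean of M-values (TMM), a factor per library computed as if most genes did not change, 116 of the 662 stayed within the same fold limit. The name of steady messages thus held in 1 of the 2 scalings across the dry stage, and in both for most members once dry grain was left out.

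The RNA was that of whole grain from Conrad, a spring malting cultivar of barley (Hordeum vulgare). Dry was unmalted mature grain. DoG0 was grain taken out of the steep after 38 h, and DoG1, DoG2, DoG3, DoG4 and DoG5 were grain after 1, 2, 3, 4 and 5 days of germination, collected 24 h apart. Each stage had 3 libraries, 21 in all. All groups shared 1 grain lot, pooled from 5 samples of 4 growing regions, and the malted stages came from 3 malting runs of 110 g dry weight each. A whole grain holds embryo, aleurone and starchy endosperm, so fewer cells of a kind and less RNA per cell cannot be told apart. TPM and TMM-scaled counts are both shares of a library, and RNA per grain was not part of the tables. Total expected counts ran from 18145400 to 31582116 per library. Dry replicate A stood apart from the other dry libraries, and the main values that rest on it are also given without it.

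A reference gene is a message whose level is taken as constant, so that other messages can be measured against it, above all in quantitative PCR. In cereal grain that choice is hard across imbibition, because the dry grain carries stored messages laid down during ripening, while the wetted embryo and aleurone make new ones and degrade old ones. The genes usually chosen code for the cytoskeleton, translation factors, ubiquitin and central metabolism. The files give gene identifiers only, and none of the 35826 matched the reference table of 58438 barley genes, so none of the genes here could be given a name or a role. The 2 characters after the prefix of an identifier code the chromosome.

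In TPM the steady genes covered a wide span of levels, and 313 of the 662 averaged under 50 TPM. Their means over 21 libraries ran from 21.5 to 3074 TPM with a median of 52.6, against a median of 73.4 TPM in the 4301 other genes with at least 20 TPM at all stages. Together they held 6.38% ± 0.509 of all TPM in Dry, 6.62% ± 0.194 at DoG0, 6.76% ± 0.233 at DoG1, 6.56% ± 0.121 at DoG2, 6.51% ± 0.0981 at DoG3, 6.29% ± 0.103 at DoG4 and 6.31% ± 0.0979 at DoG5 (SD, n = 3 each). The highest over lowest stage mean had a median of 1.37 and ran from 1.07 to just under the limit. In 112 genes the highest and lowest stage means were no further apart than a ratio of 5 to 4.

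The stages at which the steady genes were highest or lowest in TPM were spread unevenly. DoG1 was the highest stage of 196 genes, DoG0 of 158, Dry of 138 and DoG5 of 73, while DoG2, DoG3 and DoG4 were the highest of 34, 37 and 26. Dry was also the lowest stage of more genes than any other stage, with 169, followed by DoG0 with 113. The mean of the 6 malted stages lay above Dry in 362 genes, with a median log2 difference of 0.18, and below it in 300, with a median of -0.18. Small movements in TPM thus ran in both directions and centred on 0.

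Scaled by TMM, nearly all steady genes were highest in dry grain. CPM are counts scaled in the same way to library size, with no division by transcript length, here after TMM scaling. In that unit 657 of the 662 had their highest stage mean in Dry, against 46.0% of the 4963 genes with at least 20 TPM. The highest over lowest stage mean had a median of 1.75 and reached 2.57. It stayed at or below 1.5 in 116 genes, or 17.5%, and at or below 2 in 489. The same limit of 1.5 was met by 561 of the 4963 genes, so the 116 were 17.5% of the genes steady in TPM and 20.7% of those steady in TMM-scaled CPM. Without Dry replicate A, 165 of the 662 met it, and with scaling by library size alone 381 did.

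**Figure D1:**
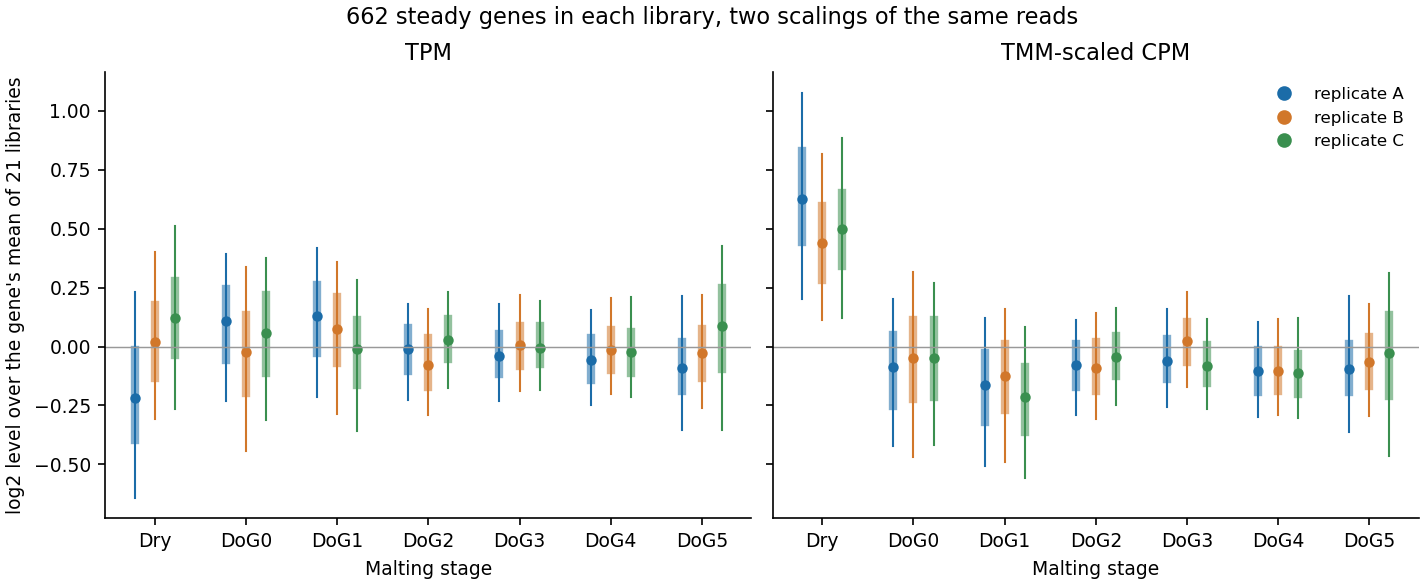
Level of the 662 steady genes in each of 21 libraries, as log2 of the level over the gene's own geometric mean, in TPM (left) and in TMM-scaled CPM (right). Points are medians over genes, thick bars span the quartiles and thin lines the 5th to 95th percentiles; the malted medians lie close together in both panels, and the 3 Dry medians are raised in TMM-scaled CPM alone.

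The difference between the scalings was 1 factor per library, shared by all steady genes. For every gene the ratio of TMM-scaled CPM to TPM differed between libraries by the same amount, and the 1st to 99th percentiles over the 662 genes spanned at most 0.057 on the log2 scale in any library. Centred on the 21 libraries, this log2 factor was 0.84, 0.42 and 0.38 in Dry replicates A, B and C. In the 18 malted libraries it lay between -0.29 and 0.02. The malted stages averaged -0.09 and Dry 0.55, a gap of -0.64 that corresponds to a 1.55-fold higher TMM-scaled level in Dry for a gene with equal TPM. All 3 dry libraries lay above all malted ones. Without Dry replicate A the gap was -0.48, or 1.40-fold, and 638 of the 662 genes were highest in Dry in TMM-scaled CPM.

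That factor had 2 parts, and both set dry grain apart. The ratio of library-size CPM to TPM, which depends on how long the abundant transcripts of a library are, averaged -0.05 in the malted stages and 0.30 in Dry on the log2 scale. The TMM factor added -0.04 in the malted stages and 0.24 in Dry. Dry replicate A held the highest value of both parts, 0.41 and 0.43, against 0.25 and 0.17 in replicate B and 0.26 and 0.12 in replicate C. Which scaling comes closer to the amount of each message per grain was not tested.

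**Figure D2:**
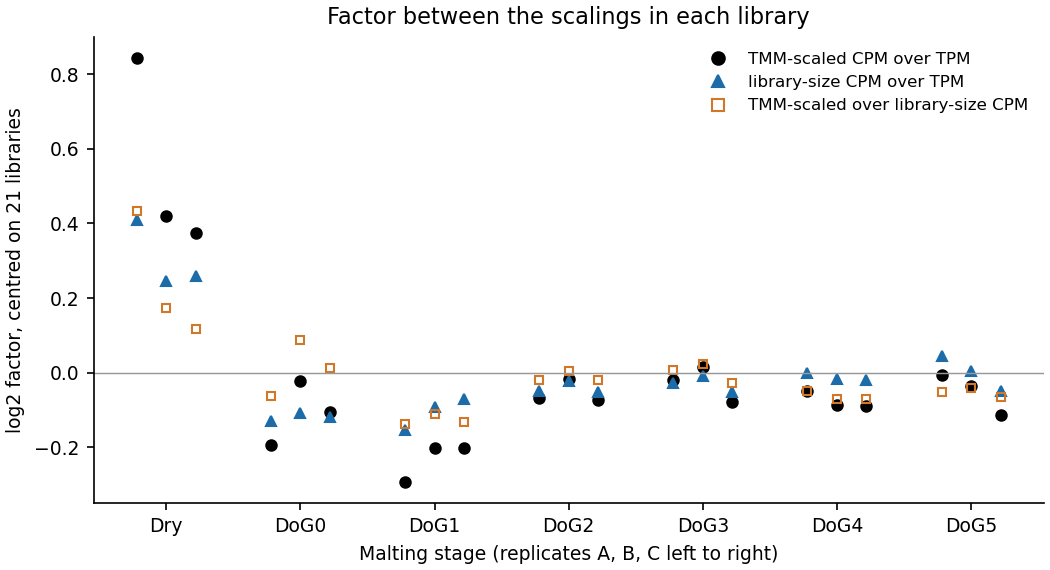
Log2 factor between scalings in each of 21 libraries by malting stage, centred on all libraries, for the 662 steady genes. Black circles give TMM-scaled CPM over TPM, blue triangles the part from library-size CPM over TPM and orange squares the part from TMM; the black circles lie at -0.29 to 0.02 in the malted libraries and at 0.38 to 0.84 in Dry.

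Since the factor applies to all genes of a library, the gap between the steady genes and all tested genes is nearly the same in both units by construction. Between DoG0 and Dry the median log2 difference of stage means in TPM was 0.04 over the steady genes and 0.58 over all tested genes. In TMM-scaled CPM the same medians were -0.60 and -0.06. The steady genes lay 0.54 below all tested genes in TPM and 0.55 below in TMM-scaled CPM. At DoG5 against Dry they lay 0.63 and 0.64 below. The tested genes include many of low level, which the steady genes do not.

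Because the rule used the same libraries and stages, the tests are given only beside their background, and nothing is read from them. The low-count filter kept all 662 genes, and 20637 genes in all were tested. The edgeR quasi-likelihood F-test over the 7 stages called 647 of them at an adjusted p under 0.05, or 97.7%, against 92.0% of all tested genes. Of the steady genes, 589 were lower at DoG0 than in Dry, where 32.0% of all tested genes were called lower, and 0 were called higher, against 29.2%. At DoG5 against Dry 580 were lower, against 32.5%, and 0 higher, against 36.8%. Their fitted log2 fold changes had a median of -0.60 in both comparisons and ran from -1.25 to -0.04 at DoG0 and from -1.17 to -0.01 at DoG5. Since no fitted change was above 0, none was higher at an unadjusted p under 0.05 either, and DESeq2 also called 0 higher. Without Dry replicate A 535 and 545 genes were lower, where 11901 and 13424 of 21016 tested genes were called in either direction.

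Tested in TPM, the same comparisons called fewer steady genes and in both directions. With limma on log2(TPM + 1), 145 steady genes were higher and 97 lower at DoG0 than in Dry, 242 in all, against 61.5% of all tested genes called in either direction. At DoG5 against Dry 90 were higher and 101 lower, 191 in all, against 68.4%. The rule had held the TPM stage means close together, and this test differs from the count test in both unit and tool. The 647 genes that the F-test over 7 stages called had a median replicate SD of 0.118 on the log2 CPM scale, and the 15 that it did not call had 0.172. TMM-scaled stage means stayed within 1.5-fold in 103 of those 647 genes and in 13 of those 15. The median highest over lowest stage mean in that unit was 1.76 in the called genes and 1.35 in those not called.

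Among the malted stages alone, most steady genes stayed within the limit in both units. From DoG0 to DoG5 the highest over lowest stage mean in TMM-scaled CPM was at most 1.5 in 600 of the 662, or 90.6%, and at most 5 to 4 in 213. Over the 4963 genes with at least 20 TPM, 30.5% stayed within 1.5-fold and 8.36% within the narrower limit. The rule had already held these genes within 1.5-fold over the malted stages in TPM, and the 2 units share their reads. The geometric mean of all 662 genes was between 60.3 and 63.8 TPM at all 7 stages. In TMM-scaled CPM it was 79.6 ± 5.47 in Dry, 52.5 ± 0.917 at DoG0, 48.8 ± 1.43 at DoG1, 52.6 ± 0.934 at DoG2, 54.0 ± 1.95 at DoG3, 51.4 ± 0.255 at DoG4 and 52.8 ± 0.675 at DoG5 (SD, n = 3 each). DoG1 was the lowest of the malted stages in that unit and the highest in TPM.

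**Figure D3:**
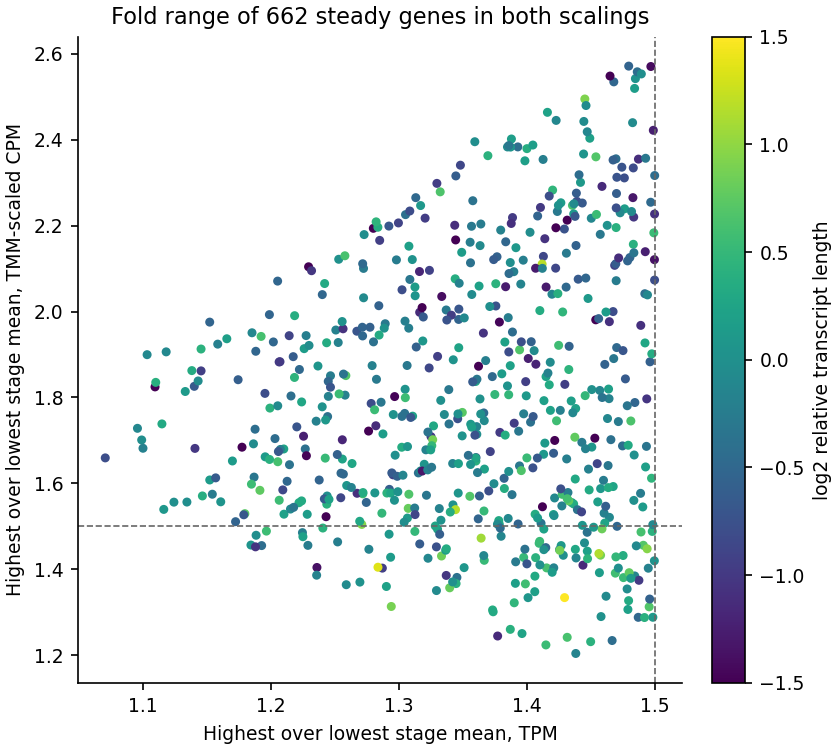
Highest over lowest of the 7 stage means for each of the 662 steady genes, in TPM (horizontal) and in TMM-scaled CPM (vertical), coloured by log2 relative transcript length, with the colour scale ending at 1.5 in either direction. Dashed lines mark 1.5; the 116 points at or below the horizontal line are steady in both units, and the highest point lies at 2.57.

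Replicates of the steady genes lay close together in most stages, and dry grain and DoG5 were the exceptions. This spread was not part of the rule, which used means, although a gene with noisy replicates is more likely to go beyond the fold limit through error in its means. The SD of log2(TPM + 1) between the 3 replicates had a median over the steady genes of 0.208 in Dry, 0.0922 at DoG0, 0.120 at DoG1, 0.0705 at DoG2, 0.0655 at DoG3, 0.0609 at DoG4 and 0.149 at DoG5. In the 4301 other genes of at least 20 TPM the median was 0.288 in Dry, 0.143 at DoG0, 0.163 at DoG1, 0.0828 at DoG2, 0.0845 at DoG3, 0.0690 at DoG4 and 0.169 at DoG5. Pooled over stages the median was 0.135 in the steady genes and 0.181 in the other genes, and 575 of the 662 lay under the median of the other genes. In the 2 other dry libraries alone, without Dry replicate A, the median SD in Dry over the steady genes was 0.125. The median SD of 2 values runs lower than that of 3, and no matching Dry value was computed without replicate B or C. How much of the fall from 0.208 belongs to replicate A was therefore not tested. Pooled over stages, the median was 0.124, 0.144 and 0.130 without Dry replicates A, B and C. As a coefficient of variation in TPM within a stage the median was 8.02% in the steady genes and 10.5% in the other genes.

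In the stages of widest spread whole libraries were shifted. In TPM the median steady gene deviated from its stage mean by -0.18, 0.04 and 0.15 log2 units in Dry replicates A, B and C. At DoG5 the deviations were -0.08, -0.02 and 0.10. Dry replicate A was the lowest of its stage in TPM and the highest in TMM-scaled CPM, where the 3 deviations were 0.11, -0.09 and -0.02. From DoG0 to DoG4 the median deviation of a library in TPM lay between -0.08 and 0.07.

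**Figure D4:**
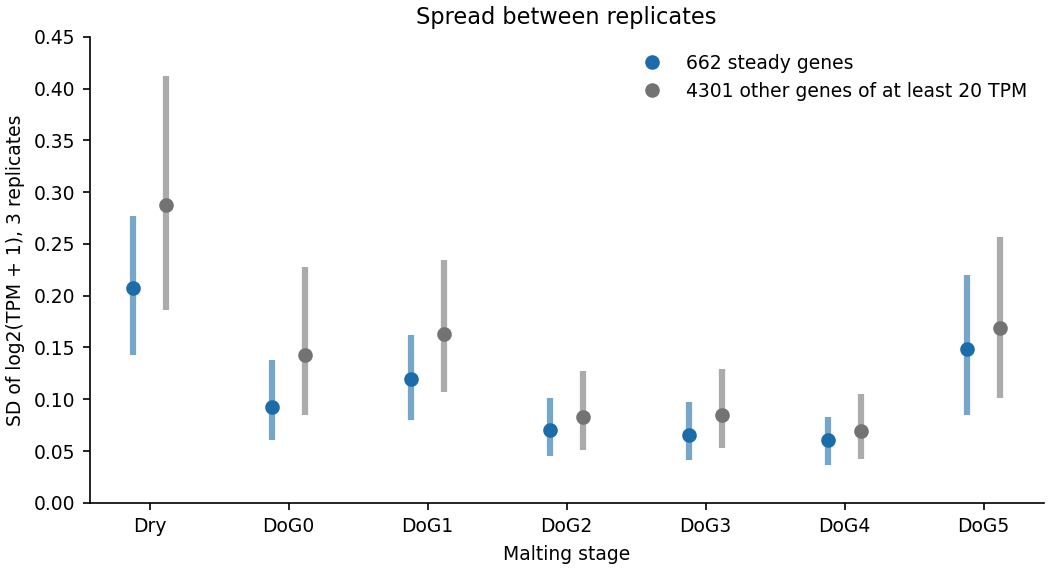
SD of log2(TPM + 1) between the 3 replicates of each malting stage, for the 662 steady genes (blue) and the 4301 other genes with at least 20 TPM at all stages (grey). Points are medians over genes and bars span the quartiles; the steady genes lie lower at each stage, with the widest spread in Dry, at 0.208 against 0.288.

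Over single libraries the limit was much harder to meet than over stage means. The highest of the 21 TPM values was at most 1.5 times the lowest in 91 steady genes, or 13.7%, and at most 2 times in 599, or 90.5%. Among the 4963 genes with at least 20 TPM these shares were 1.83% and 18.9%, as the choice on TPM leads them to differ. In TMM-scaled CPM 14 steady genes, or 2.11%, stayed within 1.5-fold, against 2.38% of the 4963, so the steady genes met this limit no more often. Within 2-fold 271 did, or 40.9%, against 20.6%. No gene stayed within 1.5-fold over the 21 libraries in both units, whether among the 662 or among the 4963. The library factor between the units ran from -0.29 to 0.84 on the log2 scale. A range that wide leaves almost no room to meet both limits, so this absence was nearly fixed by the factor.

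Genes chosen on 2 replicate letters were then followed in the letter left out. The letters served here as names only. Chosen on B and C, 664 genes met the rule, and 263 of them, or 39.6%, stayed within 1.5-fold over the 7 libraries of letter A. Chosen on A and C, 387 of 619 genes, or 62.5%, did so in letter B, and chosen on A and B, 287 of 584, or 49.1%, in letter C. Over all genes with at least 20 TPM in the same means the shares were 9.24%, 11.9% and 10.5%. Within 2-fold, 84.6%, 96.8% and 93.3% of the chosen genes stayed in letters A, B and C, against 31.1%, 40.9% and 38.6% of all those genes. The letter that holds Dry replicate A gave the lowest share. In TMM-scaled CPM the shares within 1.5-fold were 21.5%, 25.8% and 11.1%. The matching shares over all genes of at least 20 TPM were not computed in that unit, so nothing is read from these. A single library varies more than the mean of several, and how much of the loss comes from that was not tested.

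How far the steady genes kept their ratios to each other can be measured with no scaling at all. For each steady gene the SD over the 21 libraries of its log2 ratio to another steady gene was averaged over the other members, the M value of the geNorm method. M had a median of 0.252 log2 units, a lowest value of 0.195 and a highest of 0.596. Among the 116 genes steady in both units the median was 0.251 and the highest 0.323. Since all members were chosen for flat TPM, low values of M were in part fixed by the choice.

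Candidate reference genes were sought among the 116 that met the limit in both units. All 116 had a higher TPM over the malted stages than in Dry, by a median log2 difference of 0.31. A gene with equal TPM would be about 1.55-fold higher in Dry in TMM-scaled CPM, beyond the limit of 1.5. This direction was therefore largely fixed by asking for both limits. Reads of 102 of them were whole counts in all libraries, so these show no sign of reads divided between similar genes. Among those 102, the 6 genes named next had the smallest SD over the 21 libraries, taking for each gene the larger SD of the 2 units. Their values below come from the same libraries, so their small ranges were in part fixed by this pick. The pick of these 6 was not checked in libraries left out.

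The first candidate, HORVU.MOREX.r3.1HG0059340, on chromosome 1H, had TPM values of 24.8, 31.9 and 38.4 in Dry, 38.4, 38.6 and 35.0 at DoG0, 44.6, 40.5 and 37.9 at DoG1, 37.9, 36.2 and 36.9 at DoG2, 41.2, 40.0 and 39.9 at DoG3, 37.4, 36.1 and 38.2 at DoG4, and 37.4, 38.1 and 36.1 at DoG5 (replicates A, B and C). Dry replicate A gave the lowest value, and the 18 malted libraries lay between 35.0 and 44.6 TPM. In TMM-scaled counts it averaged 68.3 ± 4.27 CPM at DoG5 and 86.7 ± 7.13 CPM in Dry (SD, n = 3 each), a log2 fold change of -0.34 with a standard error of 0.08 (edgeR adjusted p = 0.00132). Its highest over lowest stage mean was 1.29 in TPM and 1.31 in TMM-scaled CPM. A second gene of higher level, HORVU.MOREX.r3.1HG0044310, on chromosome 1H, had TPM values of 297, 311 and 302 in Dry, 382, 311 and 350.4 at DoG0, 426, 397 and 393 at DoG1, 397, 402 and 393 at DoG2, 350.2, 397 and 405 at DoG3, 398, 409 and 389 at DoG4, and 415, 359 and 409 at DoG5 (replicates A, B and C). All 3 Dry values lay below the 18 malted ones. In TMM-scaled counts it averaged 193 ± 16.1 CPM at DoG5 and 227 ± 38.1 CPM in Dry (SD, n = 3 each), a log2 fold change of -0.23 with a standard error of 0.10 (edgeR adjusted p = 0.0525). Its highest over lowest stage mean was 1.34 in TPM and 1.39 in TMM-scaled CPM.

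The third candidate, HORVU.MOREX.r3.2HG0156390, on chromosome 2H, had TPM values of 117, 126 and 140.4 in Dry, 153, 141 and 153 at DoG0, 182, 169 and 158 at DoG1, 155, 139 and 167 at DoG2, 135, 146 and 153 at DoG3, 152, 144 and 149.8 at DoG4, and 133, 136 and 167 at DoG5 (replicates A, B and C). DoG1 had the highest mean, and Dry replicates A and B were the lowest libraries. In TMM-scaled counts it averaged 137 ± 12.5 CPM at DoG5 and 183 ± 20.2 CPM in Dry (SD, n = 3 each), a log2 fold change of -0.42 with a standard error of 0.09 (edgeR adjusted p = 0.000636). Its highest over lowest stage mean was 1.33 in TPM and 1.35 in TMM-scaled CPM. Another gene of high level, HORVU.MOREX.r3.1HG0090780, on chromosome 1H, had TPM values of 289.8, 309 and 286 in Dry, 348, 344 and 370.0 at DoG0, 447, 406 and 378 at DoG1, 409.8, 409.6 and 386 at DoG2, 388, 366 and 419 at DoG3, 366, 357 and 396 at DoG4, and 386, 339 and 354 at DoG5 (replicates A, B and C). The 3 Dry values were below all malted ones. In TMM-scaled counts it averaged 494 ± 45.7 CPM at DoG5 and 618 ± 109 CPM in Dry (SD, n = 3 each), a log2 fold change of -0.32 with a standard error of 0.11 (edgeR adjusted p = 0.0161). Its highest over lowest stage mean was 1.39 in TPM and 1.32 in TMM-scaled CPM.

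At a lower level, HORVU.MOREX.r3.4HG0369460, on chromosome 4H, had TPM values of 48.8, 62.7 and 62.3 in Dry, 79.9, 75.1 and 73.1 at DoG0, 93.1, 70.7 and 75.0 at DoG1, 72.2, 71.1 and 75.8 at DoG2, 66.9, 71.1 and 69.2 at DoG3, 68.0, 67.1 and 69.9 at DoG4, and 70.5, 69.2 and 69.2 at DoG5 (replicates A, B and C). DoG1 replicate A was the highest library and Dry replicate A the lowest. In TMM-scaled counts it averaged 89.8 ± 4.35 CPM at DoG5 and 113 ± 4.80 CPM in Dry (SD, n = 3 each), a log2 fold change of -0.33 with a standard error of 0.08 (edgeR adjusted p = 0.00175). Its highest over lowest stage mean was 1.37 in TPM and 1.31 in TMM-scaled CPM. The sixth candidate, HORVU.MOREX.r3.1HG0057440, on chromosome 1H, had TPM values of 43.7, 55.8 and 60.8 in Dry, 71.8, 65.7 and 68.4 at DoG0, 70.3, 74.9 and 70.4 at DoG1, 57.1, 55.4 and 61.6 at DoG2, 56.0, 63.0 and 61.9 at DoG3, 60.6, 60.8 and 57.9 at DoG4, and 55.9, 61.9 and 67.6 at DoG5 (replicates A, B and C). Dry replicate A was again the lowest, and the stage means of DoG0 and DoG1 were the highest. In TMM-scaled counts it averaged 47.1 ± 2.75 CPM at DoG5 and 61.1 ± 1.88 CPM in Dry (SD, n = 3 each), a log2 fold change of -0.38 with a standard error of 0.08 (edgeR adjusted p = 0.000362). Its highest over lowest stage mean was 1.35 in TPM and 1.38 in TMM-scaled CPM.

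Each of these 6 genes was lowest in Dry in TPM and highest in Dry in TMM-scaled CPM, so their steadiness in both units was a middle position. In library-size CPM, which in Dry lies between the other units, their highest over lowest stage mean was 1.09 to 1.23. Within the malted stages it was 1.11 to 1.24 in TPM and 1.07 to 1.19 in TMM-scaled CPM. The geometric mean of the 6 was 101.7 ± 10.4 TPM in Dry, 123.6 ± 4.57 at DoG0, 136.9 ± 9.12 at DoG1, 125.1 ± 3.06 at DoG2, 124.0 ± 4.72 at DoG3, 122.3 ± 1.49 at DoG4 and 121.8 ± 4.24 at DoG5 (SD, n = 3 each). Over single libraries it spanned 1.64-fold in TPM and 1.44-fold in TMM-scaled CPM, and without Dry replicate A 1.40-fold and 1.32-fold. The geometric mean of all 662 steady genes, chosen on TPM, spanned 1.26-fold in TPM and 1.81-fold in TMM-scaled CPM over the 21 libraries. The edgeR F-test over stages called each of the 6, with adjusted p from 0.000296 to 0.0374, with stage means within 1.39-fold in both units. The second gene did not pass the threshold at DoG5 against Dry. Without Dry replicate A 4 of the 6 passed it. HORVU.MOREX.r3.1HG0090780 then had a log2 fold change of -0.16 (standard error 0.10, edgeR adjusted p = 0.173), and HORVU.MOREX.r3.1HG0044310 had -0.07 (standard error 0.09, adjusted p = 0.511).

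**Figure D5:**
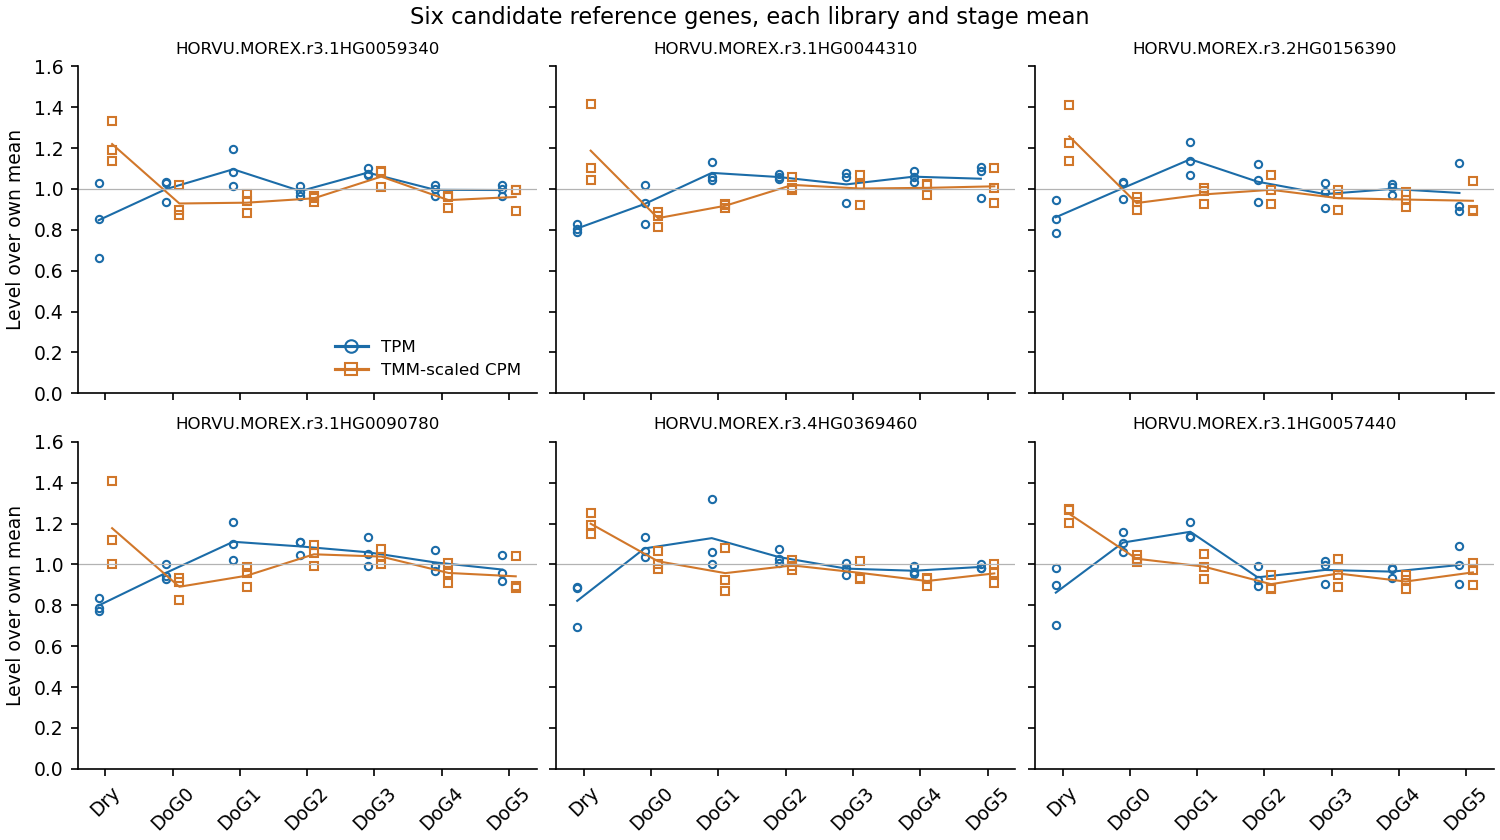
Level of the 6 candidate genes over their own mean of 21 libraries, by malting stage, in TPM (blue circles) and TMM-scaled CPM (orange squares); lines join stage means. In Dry the TPM means lie lowest and the TMM-scaled means highest for each of the 6, and from DoG0 to DoG5 both stay within 1.24-fold.

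The most abundant steady genes differed in how they fared under TMM. HORVU.MOREX.r3.4HG0333810 had TPM values of 2927, 2456 and 2217 in Dry, 3495, 4098 and 3712 at DoG0, 2860.0, 3356 and 3725 at DoG1, 2988, 3198 and 2898 at DoG2, 2869.8, 2799.6 and 2999 at DoG3, 2579, 3003 and 3178 at DoG4, and 3646, 2987 and 2563 at DoG5. Replicate values overlapped between Dry and the later days, and it stayed within 1.37-fold over stages in TMM-scaled CPM. At DoG5 it had 1558 ± 332 CPM, against 1994 ± 666 CPM in Dry (SD, n = 3 each; edgeR adjusted p = 0.117), with 2753, 1722 and 1508 CPM in Dry replicates A, B and C. HORVU.MOREX.r3.2HG0156100 averaged 2298 ± 212 TPM at DoG5 and 2464 ± 308 TPM in Dry, while its TMM-scaled level fell to 1259 ± 175 CPM, against 2051 ± 212 CPM (log2 fold change -0.70, standard error 0.10, edgeR adjusted p = 1.28e-05). HORVU.MOREX.r3.7HG0703580 averaged 1757 ± 153 TPM at DoG5 and 1801 ± 262 TPM in Dry, with 1716 ± 209 CPM, against 2729.8 ± 932 CPM, in TMM-scaled counts (log2 fold change -0.67, standard error 0.18, edgeR adjusted p = 0.00356). Without Dry replicate A its log2 fold change was -0.34 (standard error 0.14, adjusted p = 0.0387). Without that library the TPM stage means of HORVU.MOREX.r3.4HG0333810 spanned 1.61-fold, beyond the limit of the rule. All 3 had counts that were not whole in at least 1 library, so some of their reads may have been divided between similar genes, and their levels are less certain for it.

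The largest TMM-scaled falls at DoG5 against Dry went with smaller differences in TPM, which was largely fixed in advance. The rule held TPM stage means within 1.5-fold, and the library factor averaged 0.55 in Dry and -0.05 at DoG5 on the log2 scale. HORVU.MOREX.r3.6HG0609860 had 39.7, 37.7 and 33.9 TPM at DoG5 and 49.2, 54.8 and 62.7 TPM in Dry, and in TMM-scaled counts 29.5, 27.5 and 23.4 CPM at DoG5 and 65.9, 54.7 and 60.7 CPM in Dry. The groups did not overlap in either unit, and the log2 fold change was -1.17 (standard error 0.12, edgeR adjusted p = 1.43e-07). The gene was picked for its large fall in this same contrast, so the separation and the small p-value were in part fixed by the pick. Some counts of this gene were not whole, and without Dry replicate A its TPM stage means spanned 1.58-fold, beyond the limit of the rule. HORVU.MOREX.r3.5HG0516490 had 24.9, 30.0 and 24.7 TPM at DoG5 and 35.8, 40.7 and 37.9 TPM in Dry. Its TMM-scaled values were 26.9, 32.2 and 25.4 CPM at DoG5 and 72.7, 60.9 and 54.9 CPM in Dry, a log2 fold change of -1.15 (standard error 0.12, adjusted p = 2.1e-07). It was picked in the same way. With all 21 libraries no steady gene had a fitted rise in TMM-scaled counts in this comparison. In TPM limma called 90 steady genes higher and 101 lower, against 68.4% of all tested genes in either direction.

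Replicate spread among the steady genes ran from 0.0436 to 0.567 on the log2(TPM + 1) scale. The noisiest, HORVU.MOREX.r3.2HG0196390, had 170.0, 55.5 and 34.8 TPM at DoG5 and 109.6, 55.8 and 38.0 TPM in Dry, so its steady stage means hid a 4.89-fold range over libraries. The edgeR F-test did not call it (adjusted p = 0.33). The quietest, HORVU.MOREX.r3.1HG0025550, had 73.0, 70.4 and 71.9 TPM at DoG5 and 94.2, 92.5 and 102 TPM in Dry. Its Dry values lay above its DoG5 values in both units, and its TMM-scaled level fell by 1.05 on the log2 scale (standard error 0.09, edgeR adjusted p = 4.45e-08).

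Genes on either side of the limits differed little. Just inside the fold limit, HORVU.MOREX.r3.7HG0691060 had 68.6 ± 0.443 TPM at DoG4, its lowest stage, and 103 ± 4.90 TPM in Dry, its highest, and HORVU.MOREX.r3.6HG0560030 had 30.2 ± 1.44 TPM at DoG1 and 45.4 ± 2.86 TPM at DoG0. Just outside, HORVU.MOREX.r3.7HG0749560 had 36.0 ± 4.53 TPM at DoG5 and 54.0 ± 2.02 TPM at DoG1, and HORVU.MOREX.r3.7HG0687430 had 56.4 ± 1.17 TPM at DoG1 and 37.6 ± 2.93 TPM at DoG0 (SD, n = 3 each). Near the minimum level the lowest stage means were 20.05 TPM in HORVU.MOREX.r3.4HG0384690 and 20.1 TPM in HORVU.MOREX.r3.7HG0647320, which were kept, and 19.95 TPM in HORVU.MOREX.r3.3HG0234340 and 19.93 TPM in HORVU.MOREX.r3.7HG0653180, which were not. The SDs of such genes exceed their distance from the limits, so membership at the edge was within replicate error.

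Steady genes were found less often at high levels and among long transcripts, as shares of the 4963 genes with at least 20 TPM. By mean level they were 20.3% of genes under 50 TPM, 11.7% from 50 to 100, 11.2% from 100 to 200, 6.12% from 200 to 500 and 4.69% from 500 TPM up. A gene with a low mean has little room to vary while all its stage means are at least 20 TPM. The fall in share with level was therefore in part fixed by the rule. Transcript length was taken, up to a constant per library, from expected count over TPM. In 5 equal groups by this relative length they were 12.8% of the shortest, 16.9%, 18.2% and 13.2% of the next 3 and 5.54% of the longest. Their median relative length was 0.919, against 1.01 in the other 4301 genes, where 1 is the median tested gene of a library. The 116 genes steady in both units were longer, with a median of 1.09. Genes are not replicates, and these shares were not tested.

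By chromosome code the steady genes were 12.4% to 14.7% of the 4963 genes on each of the 7 chromosomes, lowest with 87 of 699 on 1H and highest with 89 of 604 on 6H, and 1 gene had no chromosome. Expected counts that were not whole were seen in 103 steady genes, or 15.6%, against 21.9% of the 4963. The lowest expected count of a steady gene in any library had a median of 894.5 over genes and a minimum of 82.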

How the data were processed

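The kit was Illumina TruSeq Stranded mRNA with poly-A enrichment, per the labels' protocols. The authors' tables hold 2 kinds of value, as deposited, for each gene and library, an expected count, which can be a fraction, and TPM. Per the submitters' processing notes STAR and RSEM were used, without versions or their roles. Genome build, annotation and strand setting: not given in the sources used here.

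The 662 members, the rule and the gene lists were chosen with earlier results of these data known. Replicates were averaged per stage in TPM for the rule. Expected counts were rounded, filtered by stage (minimum count 10, minimum total 15) and scaled by TMM, and all 21 libraries entered 1 quasi-likelihood fit with a mean per stage, 7 in all (edgeR 4.0.16, R 4.3.3), with Benjamini-Hochberg adjustment over 20637 genes and a threshold of 0.05. Standard errors are the absolute log2 fold change over the root of its F statistic. Log2 CPM use a prior count of 2, and log2 TPM a pseudocount of 1, which understates changes of low genes. Alternatives used limma 3.58.1 and DESeq2 1.42.0. The fit was tested on simulated data in which few genes changed, equally many up and down. In the real data 92.0% of tested genes were called over the stages, so that test does not cover the choice of scaling. Counts within 1e-09 of a whole number were taken as whole.

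P-values measure only the spread between malting runs, or between samples of dry grain, and this may be technical. No pair of replicates differed as little as sampling noise alone allows (chi-square over its degrees of freedom, 8.60 to 128). The rule for named genes took the 6 steadiest candidates in both units, the 3 most abundant members, the 2 largest rises and falls, the largest and smallest replicate SD, and the 2 genes on each side of each limit. The planned gene lists and tissue markers were to be matched by name and were not used here.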

Additional observations from a re-analysis of the deposited data

How the results depend on the processing

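The number of genes meeting the rule moved with its limits, with the stages used and with the use of single libraries: 299 genes at a minimum of 50 TPM, 112 at a fold limit of 5 to 4, 2053 at a limit of 2, 88 with both limits applied to each of the 21 single libraries, where 91 members met the fold limit alone, and 1764 without the dry stage, all beside the 662 reported. A minimum of 10 TPM gave 822 genes, medians of replicates gave 654, of which 560 were among the 662, and TPM rescaled to TMM gave 636, of which 115 were. The 116 members steady in TMM-scaled CPM became 381 with library size only, 279 with upper-quartile factors, 6 at a fold limit of 5 to 4, 489 at a limit of 2, and 600 without the dry stage, an alternative added after seeing the data. DESeq2 size factors gave 121 and no filter on low counts 147. The count of members called over 7 stages was 409 with limma on log2(TPM + 1) and 409 on log2(TPM + 0.1). The background, all tested genes called in the same setting, was 19081 and 19105 of 20637. At DoG0 against Dry the count of members was 347 with a minimum fold of 1.5, and 242 and 245 with the 2 limma settings. The background there was 10701, 12687 and 13165 of 20637. At DoG5 against Dry the count of members was 386 with library size only, of which 6 were higher. With a minimum fold of 1.5 it was 348, and with limma 191 and 192. The background there was 14059, 12213, 14106 and 14434 of 20637. DESeq2 called 650, 593 and 581 members, against 19264, 12905 and 14461 of 20619 tested genes. The 6 libraries of a pair alone called 453 and 465, against 9623 of 17897 and 10720 of 18633 tested genes. Leaving out each library gave 605 to 725 genes meeting the rule and 118 to 165 members steady in TMM-scaled CPM. It also gave 633 to 648, 535 to 584 and 545 to 583 called members. The background ran from 18841 to 19249, 11865 to 12554 and 13424 to 14378 called genes, of 20959 to 21079 tested. The median replicate SD ran from 0.123 to 0.145 without single libraries and was 8.02 as a coefficient of variation in percent. The mean share held in the letter left out was 50.4%, against 10.5% of all genes with at least 20 TPM in the same means. It was 91.6% at a limit of 2 and 19.5% in TMM-scaled CPM. With the replicate letter as a replicate block 646, 583 and 577 members were called, against 18787, 12427 and 14121 of 20637 tested genes. The letters were to be taken as pairs only if every same-letter pair had a correlation of deviations over 0.1, and they were not. Such a correlation was seen in 11 of 63 same-letter pairs and 21 of 126 different-letter pairs. Of the 21 libraries, 9 correlated best with their own letter. Weak correlations cannot show that libraries of different days came from different malting runs. In TMM-scaled fits no member was called higher in DoG0 or DoG5 than in Dry. The effect of depth on these counts was not tested. The library factor, dry replicate SD, candidate index and named genes without Dry replicate A were also added after seeing the data.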
